A study of Mus musculus with 24 samples.

Results

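The 8 genes described here, Shh, Ihh, Ptch1, Hhip, Smo, Gli1, Gli2 and Gli3, form the core of the Hedgehog pathway and were measured in liver and hindleg muscle of newborn mice whose mothers ate 1 of 4 diets. They were represented by 19 of the 45101 probe sets of an Affymetrix mouse array, each of which carries the symbol of a single gene, and by 8 of the 18193 genes that the array names in this way. The set was chosen with measured values in view, namely a higher Gli1 level in LP than in NP muscle. The contrast of LP with NP in muscle is therefore given as a description with no test, and so are the muscle contrasts whose means reuse its arrays.

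In the LP group the dams ate a diet with 8% casein and plain water, and in the NP group a diet with 20% casein and plain water. In the LPtau group the 8% casein diet was combined with 1% taurine in the drinking water, and in the NPtau group the 20% casein diet was combined with the same 1% taurine. All dams were on their diet from day 1 of pregnancy until birth, and the C57BL/6 pups were sampled at day 0 of age. Each of the 8 combinations of tissue and diet had 3 arrays, 24 in all, each hybridised with biotin-labelled material made from total RNA, and this number limits the precision. The labels call them biological replicates without naming dams or litters. The p-values therefore reflect only how these samples varied among themselves. The contrasts ask whether maternal protein shortage changed expression in the offspring at birth and whether maternal taurine altered that change.

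Hedgehog ligands are secreted proteins that bind the receptor Ptch1 on receiving cells. Without ligand Ptch1 holds the membrane protein Smo inactive, and with ligand Smo signals through the primary cilium to the zinc finger transcription factors Gli2 and Gli3. Gli1, Ptch1 and Hhip are classical transcriptional targets of the pathway, so their transcript levels are commonly read as its output, and Ptch1 and Hhip in turn bind ligand and restrain the signal. In a newborn limb Ihh is known from growth plate chondrocytes and Shh from hair follicle epithelium. In liver the ligands are known mainly from bile duct cells and stroma, and hepatocytes respond weakly.

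Promoters from RefSeq (assembly GRCm38.p6), running from 250 bases before to 50 bases after the start, were found for 6 of the 8 genes: Gli2, Gli3, Hhip, Ihh, Ptch1 and Smo. Those of Ptch1 and Hhip are printed because these classical targets differed most between LP and NP muscle after Gli1. That of Gli2 is printed because it alone held the core of the GLI binding site. They lie on the minus strand at chr13:63565686-63565985 for Ptch1, chr8:80057959-80058258 for Hhip and chr1:119053570-119053869 for Gli2. Capitals mark the core, read 5′ to 3′ on the strand of the gene.
Ptch1: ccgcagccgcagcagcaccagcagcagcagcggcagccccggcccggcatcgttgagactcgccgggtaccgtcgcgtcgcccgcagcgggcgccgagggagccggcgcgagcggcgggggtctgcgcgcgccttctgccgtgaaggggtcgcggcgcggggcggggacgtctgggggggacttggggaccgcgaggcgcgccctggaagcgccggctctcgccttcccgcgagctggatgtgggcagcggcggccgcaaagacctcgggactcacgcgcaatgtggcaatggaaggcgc
Hhip: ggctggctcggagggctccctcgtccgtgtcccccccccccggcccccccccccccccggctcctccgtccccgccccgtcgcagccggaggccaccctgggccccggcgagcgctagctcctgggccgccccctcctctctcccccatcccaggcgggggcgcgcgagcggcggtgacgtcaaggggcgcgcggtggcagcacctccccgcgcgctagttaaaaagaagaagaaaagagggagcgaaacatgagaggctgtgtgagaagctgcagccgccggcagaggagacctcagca
Gli2: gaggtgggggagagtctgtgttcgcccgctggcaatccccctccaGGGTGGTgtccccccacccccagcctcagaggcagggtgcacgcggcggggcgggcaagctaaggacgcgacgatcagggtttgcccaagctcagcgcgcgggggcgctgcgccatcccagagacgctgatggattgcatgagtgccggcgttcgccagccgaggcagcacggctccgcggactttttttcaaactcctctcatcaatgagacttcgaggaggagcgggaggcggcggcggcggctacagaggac
The full site searched was GACCACCCA on either strand, which was found in 0 of the 6 promoters and in 0.253% of 32851 RefSeq mouse promoters of the same length (83 of them). The core ACCACCC lies within that site and occurs as GGGTGGT on the other strand. It was found in 1 of the 6, at position -205 of Gli2, and in 4.61% of all promoters (1514 of them). The letters of Ptch1 and Hhip hold many CpG dinucleotides, 47 and 30 in 300 bases, and those of Gli2 28, against a median of 7 over all promoters. The promoters of Gli3, Ihh and Smo had 39, 30 and 17. A match or its absence describes these letters only.

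Values are log2 expression values on the RMA scale (robust multi-array average), so a difference of 1 is a doubling. Y-linked probe sets on arrays of female pups, which have no such transcript, read 2.78 to 4.31 in muscle and 3.16 to 4.51 in liver, and the upper ends are used here as the highest background readings. In muscle the probe sets used for 7 of the 8 genes were above 4.31 on 12 of 12 arrays, while Ihh was above it on 2 of 12. In liver 7 of the 8 genes were above 4.51 on 12 of 12 arrays and Gli1 on 10 of 12. Tissue labels matched their defining transcripts: Acta1, skeletal actin, read 14.20 to 14.91 in muscle, and Alb, albumin, read 14.85 to 15.01 in liver. LP and NPtau had 2 female pups of 3 in each tissue, and LPtau and NP had 1 of 3. The levels of the tissues were not compared because liver and muscle arrays were normalized separately.

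Hindleg samples also held other tissue in unequal amounts, and these levels stand beside every muscle value below. LP replicate 1 and LPtau replicate 1 stood apart, with median correlations with the other muscle arrays of 0.965 and 0.963, against 0.979 to 0.989 for the remaining 10. The summed linear level of 17 measured cartilage genes, led by Col2a1, Acan and Col9a1, was 19897, 16073 and 1126 in LP replicates 1 to 3, against 1316, 3555 and 3520 in NP replicates 1 to 3. It was 8895, 12415 and 7654 in LPtau, against 2264, 4706 and 1923 in NPtau. The sum of 9 skin and hair follicle genes, led by the keratins Krt5, Krt14 and Krt15, was 59698, 2272 and 1172 in LP, against 7847, 370 and 6824 in NP, and 602, 334 and 15845 in LPtau, against 390, 16242 and 499 in NPtau. LP replicate 1 therefore carried much skin and cartilage transcript and LP replicate 2 much cartilage transcript, whereas LP replicate 3 had the lowest cartilage level of the 12 arrays. LP replicate 3 instead had the highest sum of 5 hepatocyte genes, led by Alb, Apoa1 and Ttr, at 2121, against 174 to 918 on the other 11. In bulk tissue fewer cells of a type and less RNA per cell cannot be told apart.

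Among the targets, Gli1 stood higher in muscle of LP pups than in that of every other group. Gli1, a transcriptional activator that is itself induced by the pathway, read 7.63, 7.37 and 8.14 in the 3 LP muscles, against 6.14, 6.41 and 6.11 in NP muscles. The LPtau muscles read 6.31, 6.27 and 6.44, against 6.19, 5.87 and 6.29 in NPtau muscles. All 3 LP values lay above the 9 others, and the 9 others fell within a narrow band. The mean was 7.71 ± 0.39 in LP, against 6.22 ± 0.16 in NP (SD, n = 3 each), a difference of 1.50 (SE 0.19) or 2.82-fold. In order of level LP was followed by LPtau at 6.34 ± 0.09, NP at 6.22 ± 0.16 and NPtau at 6.12 ± 0.22, and the values of these 3 overlapped. Gli1 has a single probe set, so no second reading of it was at hand.

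Ptch1 showed the same order of diets. Its main probe set read 10.74, 9.17 and 10.18 in LP, against 8.46, 8.71 and 8.75 in NP, and 8.79, 8.35 and 8.95 in LPtau, against 8.49, 8.31 and 8.53 in NPtau. Each LP value was above all 9 others, although LP replicate 2 exceeded the highest of them by little. The difference of LP from NP was 1.39 (SE 0.32), or 2.62-fold, and it was 1.04 without LP replicate 1, the array with the most skin transcript. A second probe set read 6.46, 5.03 and 5.86 in LP, against 4.69, 4.91 and 4.76 in NP. The third read 4.55, 4.37 and 4.59 in LP, against 4.68, 4.50 and 4.42 in NP, so it showed no such separation and stayed near background.

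Hhip, a membrane protein that captures ligand, read 6.47, 6.19 and 6.09 in LP, against 5.11, 5.74 and 5.56 in NP. It read 5.97, 5.26 and 5.37 in LPtau, against 5.63, 5.52 and 5.11 in NPtau. The LP values were again above the 9 others, with LPtau replicate 1 the closest of them. The difference of LP from NP was 0.78 (SE 0.23), or 1.72-fold. In the other 3 probe sets of Hhip the LP and NP values overlapped, with differences of 0.46, 0.17 and 0.09. The mean over all its probe sets gave 0.38 for Hhip, and the same mean gave 0.78 for Ptch1.

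**Figure D1:**
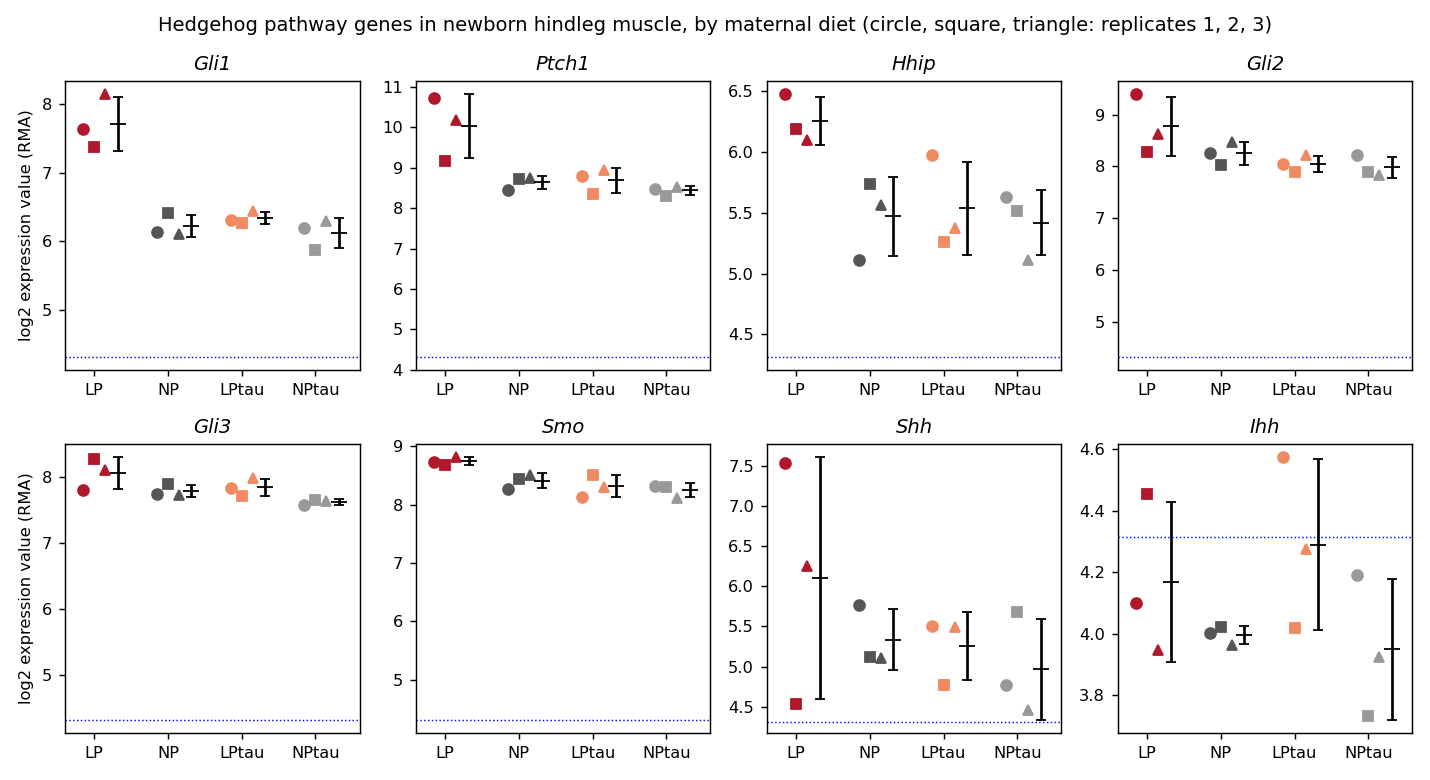
Each panel plots the log2 expression value (RMA) of a Hedgehog gene on the 12 muscle arrays by maternal diet, with circles, squares and triangles for replicates 1, 2 and 3, and the bar beside them showing mean ± SD. The dotted line is the highest background reading, 4.31. The 3 LP values of Gli1, Ptch1 and Hhip lie above all 9 others, and the Ihh points straddle the background line.

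Smo, the signal-transducing receptor, differed less. It read 8.73, 8.68 and 8.82 in LP, against 8.26, 8.45 and 8.51 in NP, and 8.14, 8.51 and 8.30 in LPtau, against 8.32, 8.30 and 8.11 in NPtau. The LP values were close to each other and above the others, and the difference of LP from NP was 0.34 (SE 0.12), or 1.26-fold. A second probe set read 8.16, 8.15 and 8.27 in LP, against 7.73, 8.01 and 7.77 in NP, a difference of 0.36. The third was at background on this tissue.

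Gli2, the main activator that relays the signal, read 9.39, 8.28 and 8.63 in LP, against 8.25, 8.02 and 8.47 in NP. LP and NP overlapped here, because LP replicate 2 lay below NP replicate 3. The difference was 0.52 (SE 0.25) with all arrays and 0.21 without LP replicate 1. A second Gli2 probe set read 8.03, 7.33 and 7.63 in LP, against 7.12, 6.80 and 7.04 in NP, with no overlap. Its suffix, like that of the main Smo probe set above, marks probes that can match several transcripts. Gli2 read 8.03, 7.89 and 8.21 in LPtau, against 8.22, 7.89 and 7.83 in NPtau.

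Gli3, known chiefly as the repressor form when ligand is absent, read 7.81, 8.29 and 8.12 in LP, against 7.75, 7.90 and 7.73 in NP. These overlapped and differed by 0.27 (SE 0.13). Its second probe set read 7.67, 8.21 and 7.99 in LP, against 7.49, 7.62 and 7.63 in NP, a difference of 0.38 with no overlap. The third was at or below the highest background reading on all 12 arrays. Gli3 read 7.84, 7.72 and 7.98 in LPtau, against 7.58, 7.65 and 7.64 in NPtau.

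The ligands did not show the separation seen for Gli1. Shh, the ligand of skin appendages and patterning centres, read 7.53, 4.53 and 6.26 in LP, against 5.77, 5.12 and 5.11 in NP, and 5.50, 4.77 and 5.49 in LPtau, against 4.77, 5.68 and 4.47 in NPtau. LP replicates 1 and 3 were above the 10 other arrays, yet LP replicate 2 was among the lowest. The difference of LP from NP was 0.77 (SE 0.61), and it was 0.06 without LP replicate 1, in which the skin and hair follicle level was highest. A second Shh probe set read 3.46 to 3.88 over the 12 arrays, within the background range. Ihh, the growth plate ligand, read 4.10, 4.45 and 3.95 in LP, against 3.96 to 4.02 in NP, and 4.58, 4.02 and 4.27 in LPtau, against 4.19, 3.73 and 3.92 in NPtau. Its values lay at the background, and the 2 arrays above it were LP replicate 2 and LPtau replicate 1.

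Over the set, 8 of 8 genes had a positive difference of LP from NP in muscle, with a median of 0.65, whereas 47.6% of all genes were positive, with a median of -0.01. In 4 of 8, Gli1, Ptch1, Hhip and Smo, all LP values were above all NP values, which held for 7.99% of all genes. Nothing is read from these counts, since the set was chosen on this contrast.

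The marker levels stood beside Gli1 as follows. Its highest value, 8.14 in LP replicate 3, stood with the lowest cartilage level, 1126, and with a skin level of 1172. LP replicates 1 and 2, with Gli1 values of 7.63 and 7.37, had the highest cartilage levels, 19897 and 16073. LP replicate 1 also had the highest skin level, 59698. Cartilage was high in all 3 LPtau arrays, with 15 of 17 genes positive and a median difference of 1.80 from NPtau, while Gli1 in LPtau differed from NPtau by 0.23. NPtau replicate 2, with a skin level of 16242, had the lowest Gli1 value, 5.87. Without the 2 arrays that stood apart, left out after seeing the data, the difference of LP from NP for Gli1 was 1.54. Fast fibre genes, led by Pvalb, Mybpc2 and Actn3, summed to 6596, 10153 and 9016 in LP, against 19704, 19648 and 17724 in NP, lower on every LP array than on every NP array. The 10 skeletal muscle genes, led by Acta1, Ckm and Mylpf, were lower in the same way, at 101137, 137208 and 132562 in LP, against 149469, 157443 and 149322 in NP, with 0 of 10 positive. The 6 endothelial genes, led by Pecam1, Cdh5 and Kdr, summed to 1595, 1375 and 1773 in LP, against 2402, 2377 and 1927 in NP, also with 0 of 6 positive. The fast fibre sums of LPtau replicate 1, 10928, and NPtau replicate 2, 12044, were nearly as low as those of the LP arrays, and these 2 arrays had Gli1 values of 6.31 and 5.87. The 3′ to 5′ log2 difference of the actin probe sets, a measure of RNA integrity, was 0.411, 0.278 and 0.468 in LP, against 0.118 to 0.276 on the 9 other muscle arrays. The same measure from the Gapdh probe sets overlapped, at -0.009, 0.096 and 0.154 in LP, against -0.015 to 0.103 on the 9 others. Whether cartilage, skin, endothelial or liver transcript, muscle fibre make-up or RNA integrity had a part in the Gli1 difference was not tested. A fit with cartilage and skin levels as covariates, chosen after seeing the data, is given at the end as a description.

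**Figure D2:**
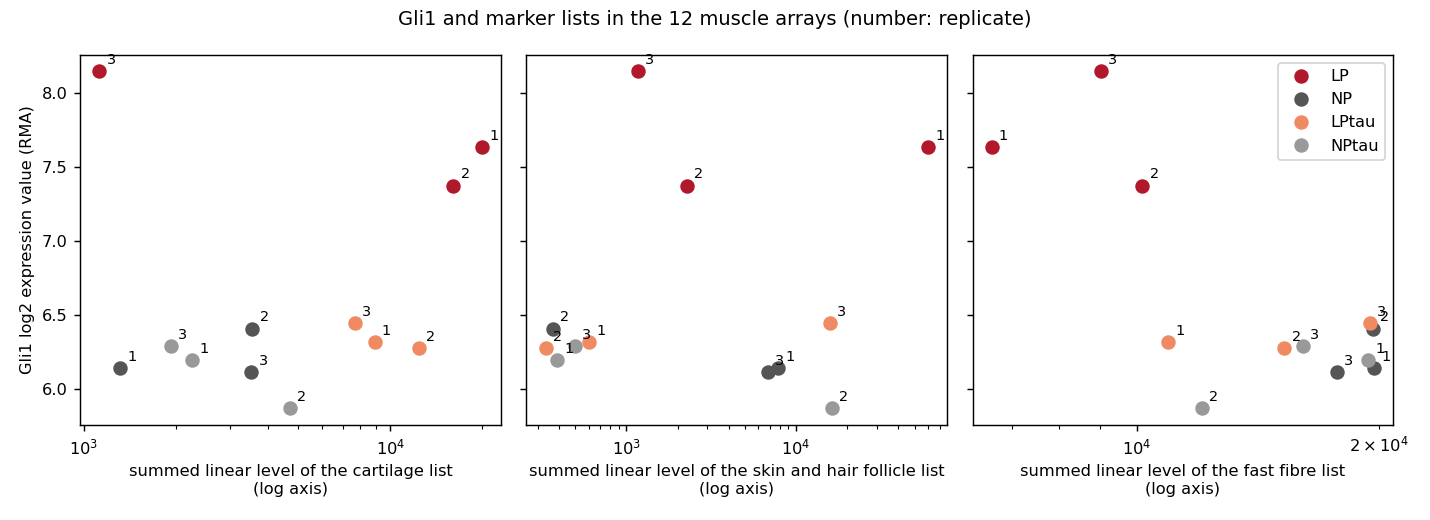
Gli1 log2 expression value (RMA, vertical axis) is plotted against the summed linear level of the cartilage, skin and hair follicle, and fast fibre lists (horizontal log axes) on the 12 muscle arrays, with the replicate number beside each point. LP replicate 3 combines the highest Gli1 value, 8.14, with the lowest cartilage level, 1126, and the 3 LP arrays lie at the low end of the fast fibre level.

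The comparison of LPtau with NPtau repeats the protein contrast in muscle under taurine, on arrays that played no part in choosing the genes, and here no Hedgehog gene passed the test. Limma called 0 of 8 genes at an adjusted p under 0.05, with 0 of 8 under an unadjusted p of 0.05. Over all 18193 genes it called 0 (0%), with 992 under an unadjusted p of 0.05. Gli1 averaged 6.34 ± 0.09 in LPtau and 6.12 ± 0.22 in NPtau (SD, n = 3 each). Its difference was 0.23 (SE 0.19, 95% interval -0.19 to 0.64, limma adjusted p 0.756), with overlapping values. Ptch1 differed by 0.25 (95% interval -0.45 to 0.95, limma adjusted p 0.830). For Hhip it was 0.12 (interval -0.38 to 0.62), a value that became -0.10 without LPtau replicate 1.

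The remaining genes gave differences of 0.07 for Smo, 0.06 for Gli2, 0.23 for Gli3, 0.28 for Shh and 0.34 for Ihh, with limma adjusted p-values of 0.737 to 0.954. All 8 were positive with the probe sets used, with a median of 0.23, against 52.5% positive and a median of 0.01 over all genes. The signs of 4 depended on the reading. The second probe sets gave -0.39 for Smo, -0.16 for Gli2 and -0.10 for Gli3, and leaving out a single array turned Smo to -0.03 (without LPtau replicate 2), Gli2 to -0.02 (without LPtau replicate 3) and Hhip to the value above. In 1 of 8, Gli3, the LPtau values all lay above the NPtau values, which held for 6.6% of all genes. This was so for the probe set used and not for the second one, in which the values overlapped. With 3 against 3 arrays an exact two-sided test of a single gene cannot go below 0.1.

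Taurine under low protein was compared within muscle as LPtau against LP, which reuses the LP arrays, so these values are again descriptions. Gli1 differed by -1.37 on the log2 scale (SE 0.19), a level 0.387 times that of LP. Ptch1 differed by -1.33, Gli2 by -0.73, Hhip by -0.72 and Smo by -0.43, each with all LPtau values below all LP values in the probe set used. Such a separation, found in 5 of 8 genes, held for 7.09% of all genes. The second probe sets of Gli2 (-0.98) and Smo (-0.66) showed it too. In the other probe sets of Ptch1 (-0.90 and 0.24) and of Hhip (-0.27, -0.02 and 0.01) the LPtau and LP values overlapped. Shh differed by -0.85 and Gli3 by -0.22 with overlap, and Ihh by 0.12. Under normal protein, NPtau differed from NP by -0.10 for Gli1, -0.20 for Ptch1 and -0.05 for Hhip. LPtau differed from NP, which has neither low protein nor taurine, by 0.13 for Gli1, 0.05 for Ptch1 and 0.07 for Hhip. The interaction, the protein difference with taurine less that without, was -1.27 for Gli1 (SE 0.27) and -1.14 for Ptch1 (SE 0.45).

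**Figure D3:**
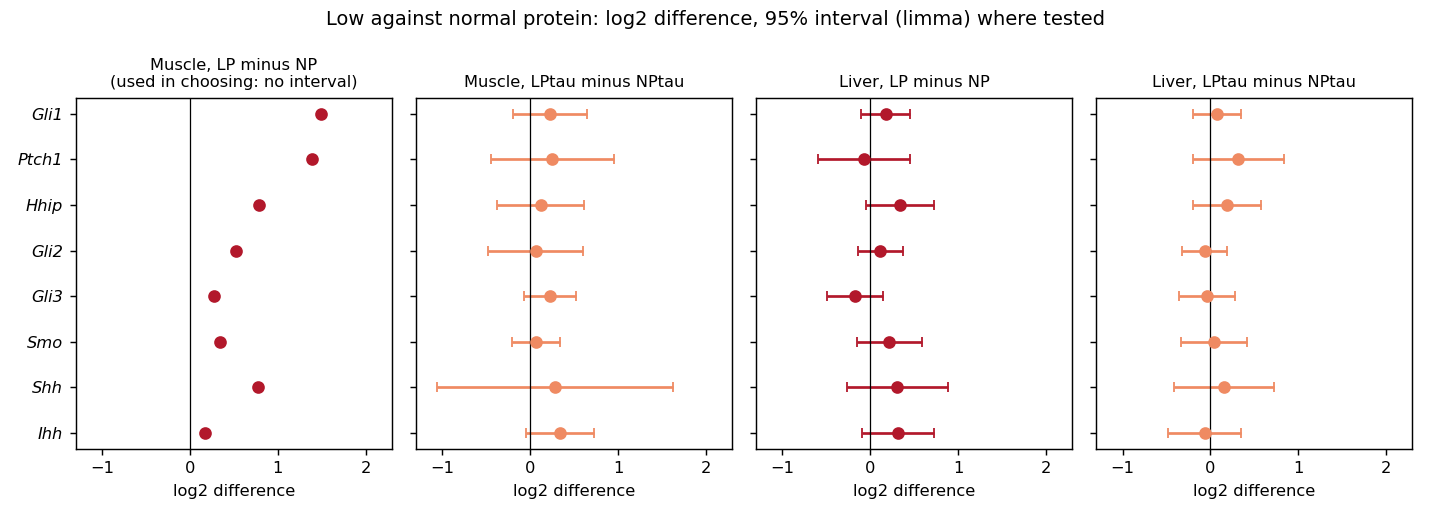
The 4 panels show the log2 difference of low from normal protein for each Hedgehog gene, from the left for muscle without taurine, muscle with taurine, liver without taurine and liver with taurine. Gli1 is at 1.50 in muscle without taurine and at 0.23 in muscle with taurine. The 3 right panels carry 95% intervals from limma, and the left panel, whose values chose the genes, shows differences alone.

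Other genes of the pathway, 56 measured of 60 listed, moved less evenly in muscle. Among 8 genes of ligand release and processing, 5 were higher in LP than in NP with a median difference of 0.07. Of 4 coreceptors and receptor relatives 3 were higher (median 0.29), and of 16 cytoplasmic regulators 11 were higher (median 0.11). Of 6 genes of cilium transport 2 were higher (median -0.08). Of 22 genes described as targets in various tissues 15 were higher (median 0.14).

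The 3 largest differences among these genes were those of Ift122, Bmp4 and Hand2. Ift122, a component of the intraflagellar transport machinery of cilia, read 6.82, 7.98 and 7.51 in LP, against 8.35, 8.41 and 8.92 in NP (difference -1.12, SE 0.25). All its LP values were lower, as in 2109 of all 18193 genes. Bmp4, a growth factor induced by Hedgehog in several embryonic tissues, read 8.01, 7.23 and 6.91 in LP, against 8.33, 8.26 and 8.10 in NP (difference -0.85, SE 0.28). Hand2, a limb patterning transcription factor, read 6.37, 4.21 and 4.55 in LP, against 4.33, 4.12 and 4.40 in NP. Its difference was 0.76, and LP replicate 1 alone was high. Sufu, the cytoplasmic inhibitor of Gli proteins, was named after its values were seen, because they were close together within each group. It read 7.40, 7.31 and 7.36 in LP, against 6.81, 6.65 and 6.82 in NP (difference 0.59, SE 0.12). All its LP values were higher, as in 7.99% of all genes, and Scube3 (0.68) and Osr2 (0.64) differed more. In the tested contrast of LPtau with NPtau, limma called 0 of the 56 genes, and 2 had an unadjusted p under 0.05. Over all 18193 genes it called 0, with 992 under an unadjusted p of 0.05, so nothing particular to the pathway is read from these counts.

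**Figure D4:**
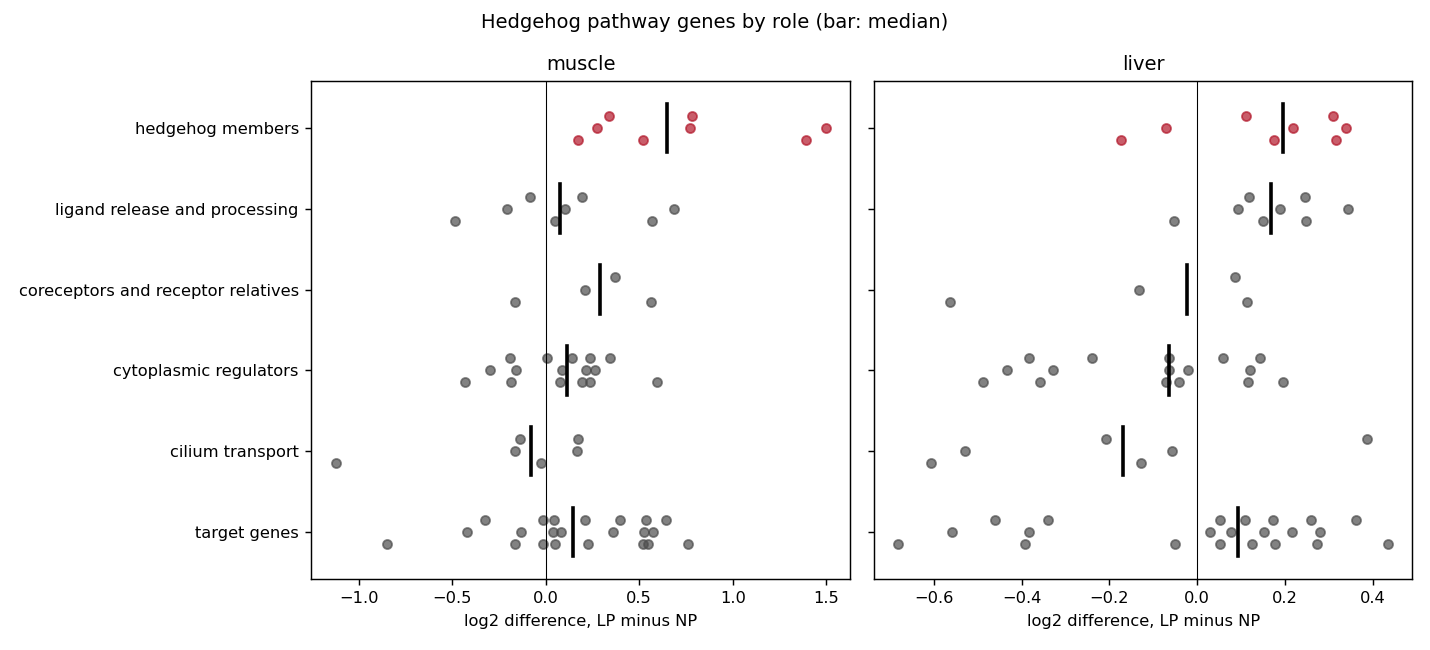
Each point is the log2 difference of LP from NP for a gene of the Hedgehog set or of the 5 lists of other pathway genes in muscle (left) and liver (right), and bars are medians. In muscle the median is 0.65 for the set and between -0.08 and 0.29 for the other lists.

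Gli1 was then set against all 18192 other genes over the 12 muscle arrays by Pearson correlation, as a description in which the 3 LP arrays carry most of the spread. The most similar were Depdc5 (r = 0.960), Med13l (0.950), Dnmt3b (0.946), Dock6 (0.945) and Srcap (0.936). Depdc5, a subunit of a complex that restrains mTORC1, read 6.16, 5.52 and 6.48 in LP, against 4.80, 5.10 and 5.09 in NP. Its LP values also exceeded those of the taurine groups, the highest of which was 5.20. Ptch1 ranked 25 (r = 0.901), Smo 186 (0.812), Hhip 377 (0.755), Gli3 602 (0.700), Gli2 643 (0.691), Shh 1949 (0.505) and Ihh 6029 (0.170).

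After the diet means were subtracted, the order changed. The most similar to Gli1 were then Mastl (r = 0.967), H2bl1 (0.937), Mfap3 (0.874), Bhmt (0.871) and Cic (0.871). H2bl1 read 3.51 to 3.97, below the highest background reading in muscle, 4.31, on every array. Bhmt read 3.76 to 4.51, and only its highest value lay above that reading. Little can therefore be read from the correlations of H2bl1 and Bhmt. Ptch1 ranked 918 (r = 0.489) and the other 6 Hedgehog genes ranked 6635 to 14251, with r between -0.24 and 0.13.

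In liver no Hedgehog gene passed the test between diets. For LP against NP limma called 0 of 8 genes, and 0 of 8 had an unadjusted p under 0.05. Over all genes it called 425 of 18193 (2.34%), 202 higher and 223 lower, with 4125 under an unadjusted p of 0.05. The liver contrast uses other arrays than the one on which the genes were chosen, but the liver and muscle arrays of a diet and number may come from the same pup, which the labels do not state.

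Gli1 in liver was barely above background, at 4.49, 4.90 and 4.63 in LP, against 4.63, 4.30 and 4.57 in NP. In the taurine groups it read 4.66, 4.63 and 4.72 in LPtau, against 4.55, 4.54 and 4.71 in NPtau. The LP and NP values overlapped and differed by 0.17 (SE 0.13, 95% interval -0.10 to 0.45, limma adjusted p 0.423), and at this signal a change in a low transcript could be missed. In order of mean LP stood at 4.67, LPtau at 4.67, NPtau at 4.60 and NP at 4.50, and neighbours in that order overlapped. Between LPtau and NP, which are not neighbours, the 3 LPtau values lay just above the 3 NP values, as in 12.2% of all genes, with a difference of 0.17 (limma adjusted p 0.843).

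Ptch1, well above background in liver, read 8.77, 8.95 and 8.78 in LP, against 9.17, 8.29 and 9.25 in NP, and 9.18, 8.86 and 9.11 in LPtau, against 8.45, 8.69 and 9.07 in NPtau. The difference of LP from NP was -0.07 (95% interval -0.59 to 0.45, limma adjusted p 0.880), and the NP values spanned the LP values. Its other probe sets gave -0.17 and 0.25, so the 3 did not share a sign.

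Hhip read 6.11, 6.12 and 6.44 in LP, against 5.54, 6.23 and 5.88 in NP, and 6.25, 6.30 and 6.05 in LPtau, against 6.18, 5.78 and 6.07 in NPtau. The difference of LP from NP was 0.34 (SE 0.18, limma adjusted p 0.278), with overlap. One of its other probe sets read 5.61, 6.14 and 6.10 in LP, against 5.12, 5.40 and 5.54 in NP, with no overlap and a difference of 0.59. In a fit of each of 45037 probe sets on its own, limma gave that probe set an adjusted p of 0.160.

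Smo, read with another probe set than in muscle, was 7.10, 6.89 and 6.81 in LP, against 6.38, 6.96 and 6.80 in NP (difference 0.22, limma adjusted p 0.457). Gli2, read with the probe set named second in muscle, was 4.96, 4.99 and 5.04 in LP, against 4.73, 4.97 and 4.95 in NP (difference 0.11, limma adjusted p 0.587). The probe sets used in muscle gave differences in liver of -0.02 for Smo and -0.12 for Gli2. Gli3 read 5.25, 5.53 and 5.41 in LP, against 5.54, 5.39 and 5.78 in NP (difference -0.17, limma adjusted p 0.492). All 3 genes overlapped between the diets.

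The ligands were both above the highest background reading, 4.51, on 12 of 12 liver arrays, without a called difference. Ihh was above it by little, with a lowest value of 4.54. Shh read 6.23, 6.45 and 6.67 in LP, against 6.04, 6.29 and 6.09 in NP (difference 0.31, limma adjusted p 0.496), while its second probe set was above the highest background reading on 1 of 12 arrays. Ihh read 4.89, 4.63 and 5.14 in LP, against 4.57, 4.57 and 4.56 in NP (difference 0.32, SE 0.19, limma adjusted p 0.331). It was the 1 of 8 genes whose LP values all exceeded the NP values, which held for 18.3% of all genes in this contrast. With the probe sets used, the median difference of the 8 genes was 0.20 with 6 of 8 positive, against 0.05 and 58.5% over all genes.

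**Figure D5:**
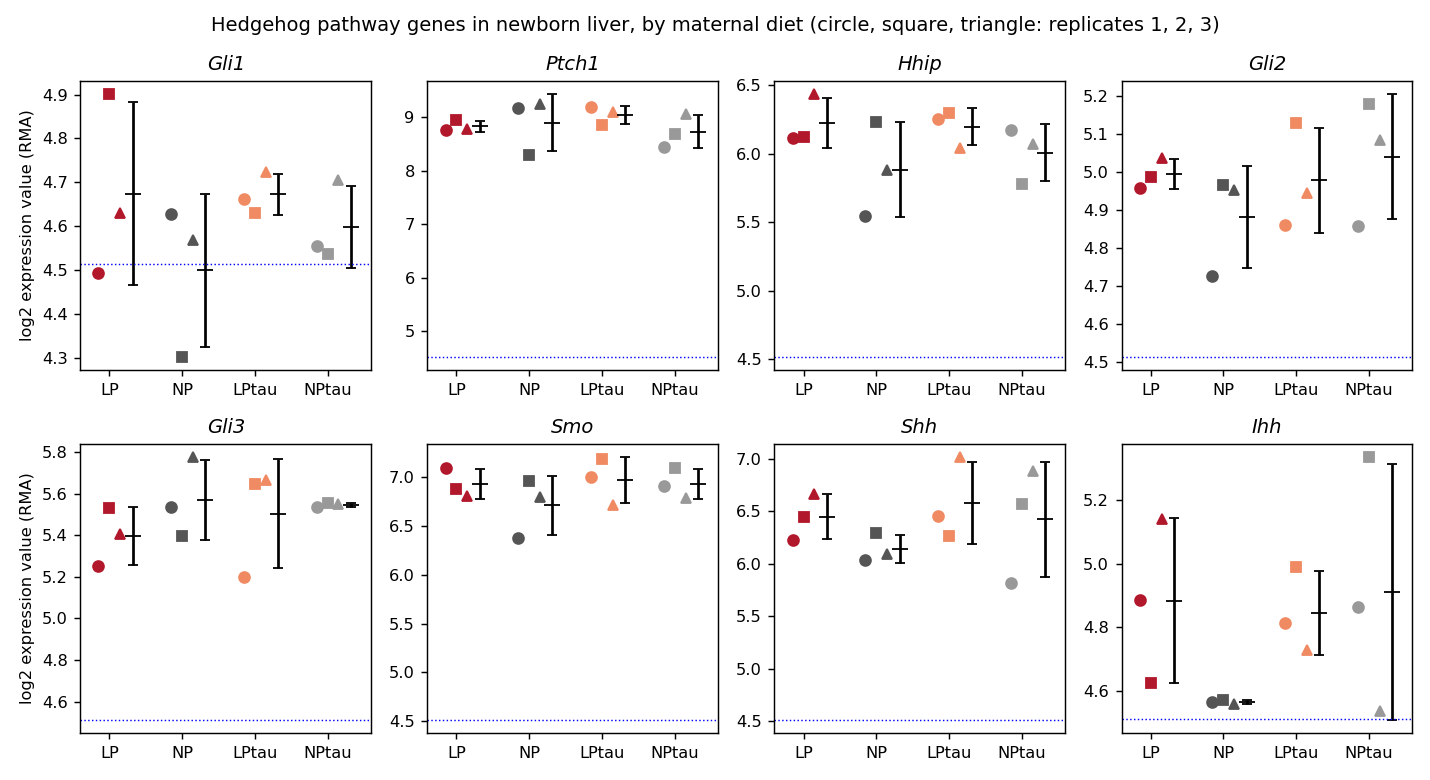
Each panel plots the log2 expression value (RMA) of a Hedgehog gene on the 12 liver arrays by maternal diet, with circles, squares and triangles for replicates 1, 2 and 3 and mean ± SD beside them. The dotted line is the highest background reading, 4.51. Gli1 lies around that line between 4.30 and 4.90. LP and NP overlap for every gene except Ihh, whose 3 LP values, from 4.63 to 5.14, lie above the 3 NP values. Those NP values, 4.56 to 4.57, are just above the line.

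The other liver contrasts gave no called Hedgehog gene either. For LPtau against NPtau limma called 0 of 8 and 0 of all genes (0%), with 863 of all genes under an unadjusted p of 0.05, and in 0 of 8 genes did all LPtau values exceed all NPtau values, against 5.68% of all genes. The largest difference was 0.32 for Ptch1 (limma adjusted p 0.999). For LPtau against LP it called 0 of 8, with adjusted p-values of 0.837 to 0.998. It called 12 of all genes (0.066%), with 1543 under an unadjusted p of 0.05. For NPtau against NP it called 0 of 8 and 0 of all genes (0%), with 500 of all genes under an unadjusted p of 0.05. The interaction also gave 0 of 8 and 0 of all genes (0%), with 1540 under an unadjusted p of 0.05, and was -0.10 for Gli1 (SE 0.18) and 0.39 for Ptch1 (SE 0.33). In none of these 4 contrasts did a Hedgehog gene have an unadjusted p under 0.05.

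Of the 56 other pathway genes, limma called 0 in liver for LP against NP, where it called 425 of all 18193 genes (2.34%). At that share little is read from 0 of 56. The 3 largest differences among the 56 were those of Foxm1, Ift80 and Gas1. In each all LP values were below all NP values, as in 1984 of all 18193 genes. Gas1, a coreceptor that helps present Hedgehog ligand to Ptch1, read 7.56, 7.94 and 7.63 in LP, against 8.28, 8.17 and 8.38 in NP (difference -0.56, SE 0.13, limma adjusted p 0.0516). Foxm1, a cell cycle transcription factor, differed by -0.68 (limma adjusted p 0.130), and Ift80, a cilium transport protein, by -0.61 (limma adjusted p 0.156).

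Whether the protein contrast under taurine differed between the tissues was tested with limma across the 24 arrays together, comparing differences and not levels. The difference in muscle less that in liver was 0.15 for Gli1 (SE 0.23, limma adjusted p 0.892) and largest for Ihh, at 0.41 (SE 0.27, limma adjusted p 0.761). It was called for 0 of 8 genes and for 0 of all genes (0%), with 1212 of all genes under an unadjusted p of 0.05. This fit takes the arrays of both tissues as independent. With the same diet and number as a random block it also called 0 of 8 genes, and the total over all genes was not counted there. For LP minus NP no such test is given, since its muscle arrays chose the genes, and the values stand side by side as 1.50 in muscle and 0.17 in liver for Gli1, and 1.39 and -0.07 for Ptch1.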

How the data were processed

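Total RNA of 24 samples was read on single-channel Affymetrix mouse arrays. The authors deposited log2 values, computed by RMA under R 2.7.0 according to the submitters' processing notes, where MAS5 is also named without a role. Per the labels, each tissue was normalized on its own. Values ran from 2.75 to 15.01, and 0 columns lacked a sample. Scanner files were not used here.

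Gene names came from the platform annotation, in which 34945 probe sets had 1 symbol, 932 several, 9160 none and 64 were controls. A gene was read with its brightest probe set in that tissue, so it can differ between tissues, with no filter on level. Limma 3.58.1 (R 4.3.3) was run per tissue with 4 diet means and Benjamini-Hochberg adjustment over 18193 genes, after being tested on simulated data. The fit over both tissues had 8 means. "Called" means an adjusted p under 0.05. A marker list's level is the sum of 2 to the power of each gene's value.

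The members and lists were chosen with earlier results of these data known. Named genes are the members, the 3 pathway genes per tissue with the largest LP minus NP difference, the 5 most similar to Gli1 in either way, and the first 3 measured genes of a marker list. Sufu, and with it Scube3 and Osr2, were named outside this rule after their values were seen. The alternatives were quantile and cyclic loess normalization, a level filter, probe set means, single probe sets, 2-group fits, an intensity trend, sex, a replicate block and leaving out each array. Replicate numbers were not used to pair the arrays in the main fits, since the labels state no pairing. Deviations from the diet means of same-numbered arrays correlated between -0.44 and 0.34 in muscle and between -0.21 and 0.42 in liver. With so few arrays and no comparison with other numbers, this cannot settle whether they are paired. Sex by Xist and Y-linked genes matched between tissues in 12 of 12 combinations of diet and number, whose deviations correlated between 0.03 and 0.19, so both arrays may come from the same pup, which the labels do not state. Of the arrays, 0 pairs of arrays were identical.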

Additional observations from a re-analysis of the deposited data

How the results depend on the processing

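In each alternative run, 0 of 8 Hedgehog genes were called in the tested contrasts, and 0 genes in all were called for LPtau against NPtau in muscle. For the other tested contrasts the total over all genes was not counted in these runs. Their 0 of 8 therefore has no share over all genes beside it. The difference of LP from NP for Gli1 in muscle was 1.28 without LP replicate 3 and 1.67 without LP replicate 2, the lowest and highest of the fits that left out an array. It was 1.48 after quantile normalization, 1.50 after cyclic loess, 1.46 with sex as a covariate and 1.50 with a replicate block, a pairing that the labels do not state. Among the alternative values of the 8 genes that differed at all from those reported, Gli1 included, the sign was kept in 94 of 94 for LP against NP in muscle and in 85 of 94 for LPtau against NPtau. In liver 73 of 78 kept it for LP against NP, 67 of 78 for LPtau against NPtau, 53 of 78 for LPtau against LP, 75 of 78 for NPtau against NP and 121 of 126 for the interaction. Single probe sets were not counted among these values. For LP against NP in muscle the third probe sets of Ptch1 and Gli3, which read near background, gave -0.03 and -0.04. The runs share most of their arrays, and LP against NP in muscle is the contrast that chose the genes. Without LP replicate 1 the muscle difference of LP from NP was 0.06 for Shh and 0.21 for Gli2, and without LP replicate 2 it was 0.17 for Gli3 and 0.03 for Ihh. Taking the mean of all probe sets of a gene gave 0.78 for Ptch1, 0.38 for Hhip and, for LPtau against NPtau, 0.02 for Gli3, whose second probe set has the opposite sign, and -0.05 for both Gli2 and Smo. Without the 2 muscle arrays that stood apart Hhip differed by -0.10 between LPtau and NPtau, and with cartilage and skin levels as covariates by -0.08, while Gli1 differed by 1.71 between LP and NP with these covariates. Both settings were chosen after seeing the data. The fit of only the compared groups was not run for the interaction. Readings near background limit Ihh in both tissues and Gli1 in liver, where a change may go unseen.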
